A study of Drosophila melanogaster with 6 samples.

Results

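The 9 genes described here, *Ire1*, *PEK*, *Xbp1*, *crc*, *Hsc70-3*, *Gp93*, *Pdi*, *Sec61alpha* and *CrebA*, serve protein folding and secretion at the endoplasmic reticulum (ER). They were picked by symbol, for their known roles in the unfolded protein response, ER chaperoning, translocation and secretory gene control, from the 17558 genes of the count table, and this rule uses no measured value. All 9 were found, and all 9 passed the filter on low counts. RNA was sequenced from enteroendocrine cells (EEs), the hormone-producing cells of the gut epithelium, which were sorted by fluorescence from midguts of adult females. There were 3 *pros*-depleted samples (ProsV1-Gal4ts>UAS-GFP; pros-RNAi) and 3 control samples with the same driver and GFP but no hairpin (ProsV1-Gal4ts>UAS-GFP). Flies of both groups were 5 to 7 days old and were then kept at 29 °C for 7 days. At this temperature the repressor of Gal4 is inactive, so that cells with an active *pros* driver make GFP and, in the *pros*-depleted group, also the hairpin that targets *pros* mRNA. The labels print the driver of *pros*-depleted replicates 2 and 3 as Gal5ts and Gal6ts, and they do not name the hairpin line. RNA interference leaves part of the transcript in place, and each sample pools many guts, so these are averages over about 20000 sorted cells, taken without regard to EE subtype.

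Proteins bound for secretion enter the ER through the Sec61 channel and fold there with the help of chaperones such as BiP and of disulfide isomerases. When unfolded protein builds up, sensors in the ER membrane start the unfolded protein response. Ire1 cuts *Xbp1* mRNA so that it encodes an active transcription factor, and PEK, the fly PERK, phosphorylates eIF2alpha, which lowers general translation but raises that of crc, the fly ATF4. CrebA, a CREB3-like factor, raises secretory pathway genes in embryonic secretory tissues such as the salivary gland. EEs make large amounts of peptide hormone precursors, all of which pass through the ER. The counts give total mRNA per gene, so neither the cut form of *Xbp1* nor the activity of Ire1, PEK or crc can be read from them.

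The samples held 27183747 to 40766059 counts on genes, and a floor of 3 counts in a sample equals 0.0755 to 0.110 CPM (CPM stands for the counts of a gene relative to the total of a sample scaled by edgeR's TMM factor, per 1000000). Such floors cover counting error only, since reads of amplified RNA are not independent molecules. Of the 10374 genes tested, 12.7% were called, with 4.73% higher and 7.96% lower in *pros*-depleted EEs. Genes were called by edgeR's quasi-likelihood test where the Benjamini-Hochberg adjusted p over all genes tested was below 0.01 and the log2 fold change exceeded 0.5 in size. The targeted gene, *pros*, had 162, 138 and 162 CPM in the *pros*-depleted samples, against 500.0, 548 and 836 CPM in the controls. The 10 EE markers summed to 6942 to 10354 CPM in *pros*-depleted samples and 89898 to 97857 CPM in controls, by library size alone, and none was at 0. By the same measure the 8 enterocyte markers summed to 4903 to 10708 CPM in *pros*-depleted samples and 681 to 1983 CPM in controls, and the 6 progenitor markers to 633 to 707 CPM in *pros*-depleted samples and 218 to 329 CPM in controls. Markers of visceral muscle stayed at 34.8 CPM or less in sum in every sample, those of hemocytes at 25.9 CPM or less, those of the fat body at 14.9 CPM or less and those of the trachea at 6.01 CPM or less. Apart from *pros* and *Rab3*, the EE markers are hormone genes that are counted again among the peptide hormones below. The enterocyte markers *Jon65Aiii*, *Jon66Cii*, *betaTry*, *alphaTry* and *Mal-A1* are likewise counted again among the digestive enzymes below. These marker sums and the later shares are therefore not separate observations. Mitochondrially encoded genes took 13.6% to 27.6% of the counts in *pros*-depleted samples and 11.3% to 17.3% in controls. In sorted bulk RNA, fewer cells of a type and less RNA per cell cannot be told apart, and the part that other cell types have in the values below was not tested.

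None of the 9 genes was called in either direction, with 12.7% of all genes tested as the background. At an unadjusted p under 0.05 there were 2 of the 9 genes, *Ire1* and *PEK*, against 38.7% of all genes tested, and DESeq2 called 0 of the 9 genes higher and 1 lower, *Ire1*, where it called 21.6% of all genes tested (9.41% higher and 12.2% lower). The median log2 fold change of the 9 genes was -0.0012, with a range of -1.22 to 0.54, and the median of all genes tested was 0.02. The groups did not overlap in 2 of the 9 genes, with *PEK* above and *Ire1* below in *pros*-depleted samples, and in 43.0% of all genes tested. These 9 genes together took 0.351% to 0.449% of the counts in *pros*-depleted samples and 0.352% to 0.379% in controls.

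**Figure D1:**
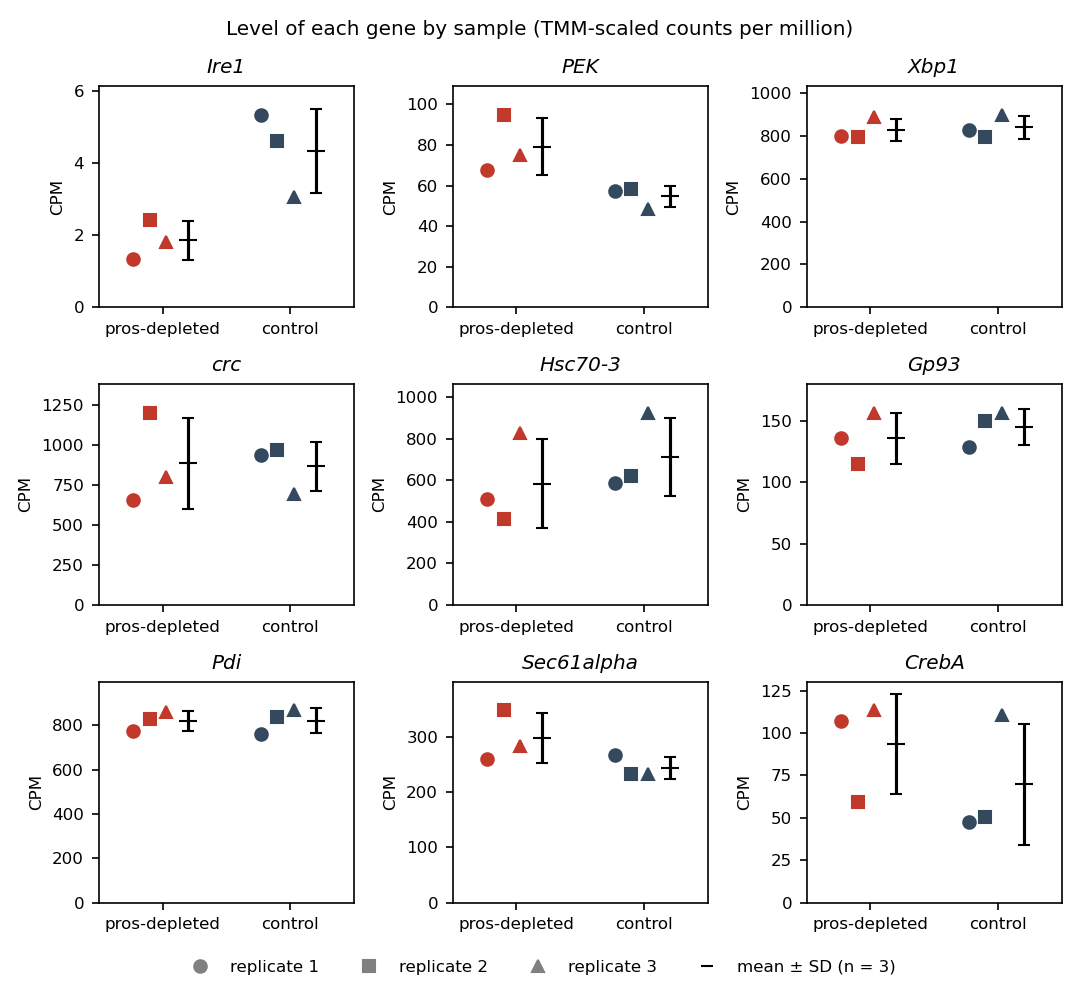
Level of each of the 9 genes in CPM (vertical axes, each starting at 0) in the 3 *pros*-depleted samples (red, left) and the 3 control samples (dark, right), with marker shapes for replicates 1 to 3 and black bars for the mean ± SD. The groups are apart for *Ire1* and *PEK* and overlap for the other 7 genes.

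The sensor *Ire1* encodes the ER transmembrane kinase and RNase of the response. It lies on chromosome 3R from 19853908 to 19861291 on the reverse strand (BDGP6, gene FBgn0261984), with 4034 bp of exons. It had 43, 66 and 55 counts in the *pros*-depleted samples, against 212, 129 and 106 counts in the controls. Scaled for depth, these were 1.35, 2.42 and 1.80 CPM in *pros*-depleted EEs and 5.34, 4.61 and 3.05 CPM in control EEs. The *pros*-depleted samples were all below the lowest control, and all 6 values were well above the floor of 3 counts. The log2 fold change was -1.22 (95% interval -1.99 to -0.45), or 1.86 ± 0.537 CPM in *pros*-depleted EEs and 4.33 ± 1.17 CPM in control EEs (SD, n = 3 each). It did not pass the threshold with edgeR (adjusted p = 0.0306) and did with DESeq2 (adjusted p = 0.00668). With an adjusted p allowed up to 0.05, edgeR called 26.1% of all genes tested (11.4% higher and 14.6% lower), and of the 9 genes 0 higher and 1, *Ire1*, lower. Over the 6 fits that each left out a sample, the log2 fold change lay between -1.45 and -1.02, with edgeR adjusted p values of 0.0278 to 0.101. The exons of *Ire1* share 496 bp with *CG4662* on the opposite strand. *CG4662* had 22.8, 28.0 and 19.4 CPM in *pros*-depleted samples and 35.8, 46.6 and 33.0 CPM in controls. Whether strand was used in counting is not given in the sources used here, so reads of the shared stretch cannot be assigned with certainty.

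The other membrane kinase, *PEK*, lies on chromosome 3R from 5458563 to 5464753 on the reverse strand (FBgn0037327), with 4873 bp of exons that overlap no other gene of the table. It had 67.5, 94.8 and 75.3 CPM in *pros*-depleted samples, against 57.2, 58.2 and 48.4 CPM in controls. Every *pros*-depleted sample was above every control, and *pros*-depleted replicate 2 was highest. Its log2 fold change was 0.54 (95% interval 0.10 to 0.97), which was not called by edgeR (adjusted p = 0.0697) or DESeq2 (adjusted p = 0.0445). Without *pros*-depleted replicate 2 it was 0.40 (adjusted p = 0.143 from edgeR). For *Ire1* as for *PEK*, the two-sided exact permutation test gave p = 0.1, and no smaller p can be reached with 3 samples a group. The estimates of these sensors were thus of opposite sign, though neither gene was called by edgeR.

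*Xbp1*, the transcription factor gene whose mRNA Ire1 cuts, lies on chromosome 2R from 21143545 to 21145750 on the forward strand (FBgn0021872), with 2142 bp of exons. It had 801, 795 and 889.9 CPM in *pros*-depleted samples, against 826, 796 and 899 CPM in controls. The samples of the groups interleaved, and replicate 3 was highest in each group. The means were 829 ± 53.2 CPM in *pros*-depleted EEs and 840.4 ± 53.2 CPM in control EEs (SD, n = 3 each). The log2 fold change of -0.02 had a 95% interval of -0.39 to 0.35 (adjusted p = 0.940 from edgeR), and the interval covers total *Xbp1* mRNA only, cut and uncut together. *Xbp1* was among the steadiest genes of the data, with a within-group SD of 0.091 on the log2 scale against a median of 0.308 over all genes tested. Its place in that order was the 2.26th percentile.

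*crc*, the fly ATF4 gene, lies on chromosome 2L from 21310866 to 21319527 on the forward strand (FBgn0000370), with 3423 bp of exons. It had 655, 1205 and 802 CPM in *pros*-depleted samples, against 942, 971 and 694 CPM in controls. The *pros*-depleted samples held both the lowest and the highest value of the 6, so the groups overlapped fully. The log2 fold change was 0.03 (95% interval -0.57 to 0.63, adjusted p = 0.946 from edgeR). It was -0.25 without *pros*-depleted replicate 2 and 0.22 without *pros*-depleted replicate 1, neither of them called.

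**Figure D2:**
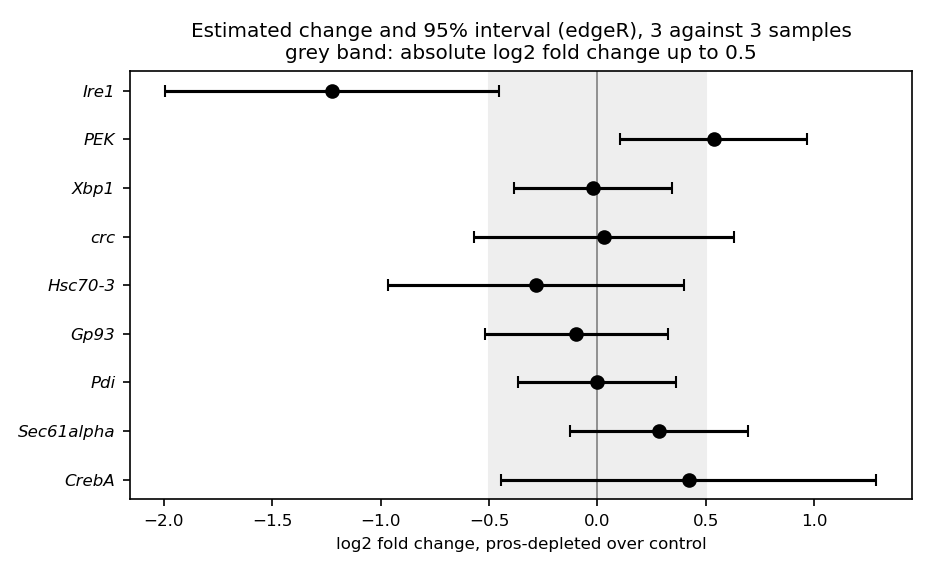
Estimated log2 fold change of each gene, *pros*-depleted over control (horizontal axis), as points with 95% intervals from edgeR's fit over all genes and 3 samples a group, with a grey band for absolute values up to 0.5. The intervals of *Ire1* (-1.99 to -0.45) and *PEK* (0.10 to 0.97) do not reach 0, and those of the other 7 genes do.

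Among the ER chaperones, *Hsc70-3* encodes BiP, the main Hsp70 of the ER lumen. It lies on chromosome X from 11801696 to 11807117 on the reverse strand (FBgn0001218), with 3589 bp of exons. It had 511, 417 and 827 CPM in *pros*-depleted samples, against 586, 624 and 926 CPM in controls. Replicate 3 was highest in each group, and the groups overlapped. The means of 585 ± 215 CPM in *pros*-depleted EEs and 712 ± 187 CPM in control EEs (SD, n = 3 each) differed by less than either SD. The log2 fold change was -0.28 (95% interval -0.97 to 0.40, adjusted p = 0.518 from edgeR). It moved to -0.61 without *pros*-depleted replicate 3 and to -0.057 without control replicate 3, and it was not called in either fit.

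*Gp93*, the fly GRP94 and the Hsp90 of the ER, lies on chromosome 3R from 27948711 to 27952151 on the forward strand (FBgn0039562). It had 136, 114 and 156 CPM in *pros*-depleted samples, against 129, 149.9 and 156 CPM in controls. The groups overlapped, and the log2 fold change was -0.10 (95% interval -0.52 to 0.32, adjusted p = 0.732 from edgeR). Its exons share 101 bp with *CG4951* on the opposite strand, which held 340 to 450 counts per sample where *Gp93* held 3121 to 5438.

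*Pdi*, a protein disulfide isomerase that forms and rearranges disulfide bonds, lies on chromosome 3L from 15137738 to 15142840 on the reverse strand (FBgn0286818). It had 772, 829 and 859 CPM in *pros*-depleted samples, against 759.9, 836 and 866 CPM in controls. The samples of the groups interleaved, with means of 820.0 ± 44.1 CPM in *pros*-depleted EEs and 821 ± 54.7 CPM in control EEs (SD, n = 3 each). Its log2 fold change was -0.0012 (95% interval -0.37 to 0.36, adjusted p = 0.997 from edgeR), and its within-group SD of 0.088 on the log2 scale lay at the 2.11th percentile of all genes tested. The non-coding gene *CR45396* on the opposite strand, with 501 bp of exon in common, held at most 2 counts in any sample.

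*Sec61alpha*, the pore-forming subunit of the translocon, lies on chromosome 2L from 6477182 to 6480575 on the reverse strand (FBgn0086357). It had 260.4, 347 and 283 CPM in *pros*-depleted samples, against 267, 232 and 232 CPM in controls. *pros*-depleted replicate 2 was highest, and *pros*-depleted replicate 1 lay below control replicate 1. Its estimate was a log2 fold change of 0.29 (95% interval -0.13 to 0.70, adjusted p = 0.278 from edgeR). For *Gp93*, *Pdi* and *Sec61alpha*, leaving out any 1 sample gave log2 fold changes of -0.20 to 0.021, -0.047 to 0.053 and 0.17 to 0.38, none of them called.

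*CrebA* lies on chromosome 3L from 15535395 to 15553214 on the forward strand (FBgn0004396), with 4498 bp of exons. It had 107, 59.6 and 113 CPM in *pros*-depleted samples, against 47.7, 50.7 and 111 CPM in controls. Control replicate 3 stood at the level of the 2 higher *pros*-depleted samples, while the other controls were lowest of all. The log2 fold change was 0.42 (95% interval -0.45 to 1.29, adjusted p = 0.446 from edgeR). Without control replicate 3 it was 0.92 (adjusted p = 0.0747), and without control replicate 1 it was 0.21. Control replicate 3 also held more digestive enzyme counts than the other controls, at 1.07% of its counts against 0.473% and 0.475%, and the part this has in the *CrebA* value was not tested. With the replicate 3 library of each group left out, an alternative chosen after seeing these values, the log2 fold change of *CrebA* was 0.77 (adjusted p = 0.171 from edgeR) and that of *Hsc70-3* was -0.38 (adjusted p = 0.313).

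The 9 genes did not vary together among the samples of a group. In *pros*-depleted replicate 2, *crc*, *PEK*, *Sec61alpha* and *Ire1* were at their highest within the group, by 0.49, 0.27, 0.24 and 0.41 above the group mean of log2 CPM. In the same library *CrebA*, *Hsc70-3*, *Gp93* and *Xbp1* were at their lowest, at -0.59, -0.43, -0.23 and -0.058 relative to that mean. The reverse was seen in control replicate 3, where *CrebA*, *Hsc70-3*, *Gp93*, *Xbp1* and *Pdi* were highest of the controls, at 0.78, 0.41, 0.12, 0.099 and 0.080. There *Ire1*, *crc*, *PEK* and *Sec61alpha* were lowest, at -0.46, -0.31, -0.17 and -0.068. *CrebA*, *Hsc70-3*, *Gp93* and *Xbp1* thus stood on one side, and the sensors, *crc* and *Sec61alpha* on the other, in these libraries of different groups. These sides were named after the values were seen. Deviations are centred within 3 samples, so a library far to one side moves the others of its group to the other side. *Sec61alpha* was nearly level in control replicates 2 and 3, at -0.066 and -0.068. In *pros*-depleted replicate 3, *CrebA*, *Hsc70-3*, *Gp93*, *Xbp1* and *Pdi* were highest of that group, at 0.33, 0.56, 0.22, 0.10 and 0.068, as in control replicate 3. There *crc*, *PEK*, *Sec61alpha* and *Ire1* lay below their means, at -0.098, -0.058, -0.058 and -0.0013, but were not lowest. The remaining libraries did not all show it. In *pros*-depleted replicate 1 *Ire1*, *crc*, *PEK* and *Sec61alpha* were lowest, but *CrebA* at 0.26 and *Hsc70-3* at -0.13 lay on different sides of their means. *pros*-depleted replicate 2 had the highest share of mitochondrially encoded counts of all samples, 27.6%, and control replicate 3 the lowest, 11.3%. With mitochondrial genes left out of the table, none of the 9 genes was called and the log2 fold changes of *PEK* and *Hsc70-3* were again 0.54 and -0.28. That fit changes only the scaling of the other genes and compares the groups, so it cannot address the spread within a group. The part of RNA quality in this spread was not tested.

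**Figure D3:**
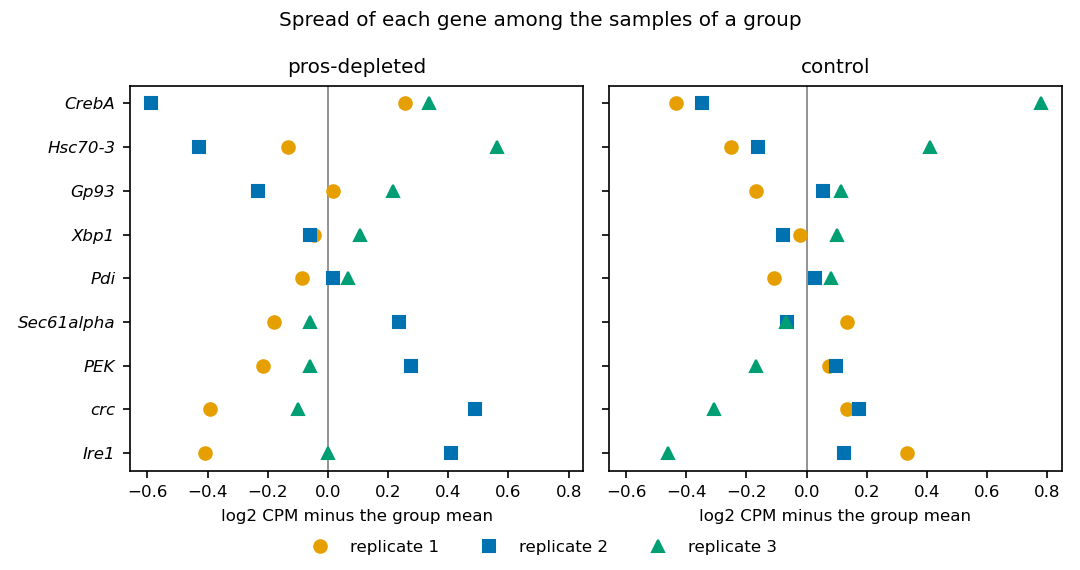
Difference of each sample from its group mean in log2 CPM (horizontal axes) for the 9 genes, in *pros*-depleted samples (left panel) and control samples (right panel), with 1 marker shape and colour for each replicate. *CrebA* and *Hsc70-3* spread widest at the top, *Xbp1* and *Pdi* stay closest to the mean, and replicate 2 on the left and replicate 3 on the right order the genes in opposite ways.

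Per kilobase of exon, the order of the 9 genes was the same in both groups. This order depends on the division by length, and whether reads of amplified RNA scale with exonic length was not tested. By CPM alone *crc* had a higher mean than *Xbp1*, at 887 against 829 CPM in *pros*-depleted EEs and 869 against 840.4 CPM in control EEs. *Xbp1* had 387 ± 24.8 CPM per kilobase in *pros*-depleted EEs and 392.4 ± 24.8 in control EEs, and *Pdi* had 352 ± 18.9 in *pros*-depleted EEs and 352 ± 23.5 in control EEs (SD, n = 3 each). *crc* followed at 259 ± 83.2 in *pros*-depleted EEs and 254 ± 44.5 in control EEs, and *Hsc70-3* at 163 ± 59.8 in *pros*-depleted EEs and 198 ± 52.0 in control EEs. *Sec61alpha* had 139.6 ± 21.2 in *pros*-depleted EEs and 114 ± 9.44 in control EEs, and *Gp93* had 47.7 ± 7.37 in *pros*-depleted EEs and 51.0 ± 5.14 in control EEs. Lower still were *CrebA* at 20.8 ± 6.53 in *pros*-depleted EEs and 15.5 ± 7.91 in control EEs and *PEK* at 16.2 ± 2.89 in *pros*-depleted EEs and 11.2 ± 1.11 in control EEs. *Ire1* came last at 0.460 ± 0.133 in *pros*-depleted EEs and 1.07 ± 0.290 in control EEs. The mRNA that Ire1 cuts was therefore among the most abundant of these genes, and that of Ire1 itself was the rarest. The samples of neighbours in this order overlapped in both groups for *crc* and *Hsc70-3* and for *CrebA* and *PEK*. They also overlapped in *pros*-depleted EEs for *Pdi* and *crc* and for *Hsc70-3* and *Sec61alpha*, and in control EEs for *Xbp1* and *Pdi*. The other neighbours did not overlap.

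Over the 6 samples, the profile nearest to a gene was taken as the smallest root mean square difference of log2 CPM, each gene centred on its own mean. For *Xbp1* the nearest were *RpII33* (0.046), *Su(H)* (0.047) and *Amun* (0.048), and *Pdi* was the 16th nearest at 0.069. For *Hsc70-3* they were *CG34424* (0.092), *CG9581* (0.098) and *Pgant35A* (0.10), with *Gp93* as the 210th at 0.25. For *Ire1* they were *CG5937* (0.15), *CG10874* (0.15) and *Pis* (0.15), all 3 with negative log2 fold changes between -1.26 and -1.09. The difference between the groups is part of this measure, so a shared sign follows from the way these genes were picked. For *CrebA* the nearest were *CG7337* (0.099), *Mnt* (0.10) and *skd* (0.10). None of these lists held another of the 9 genes, and flat profiles such as that of *Xbp1* lie near many genes.

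The shares of counts on genes for secreted cargo differed between the groups, while the groups overlapped in the share of the 9 genes together. The 13 peptide hormone genes listed took 0.826%, 1.20% and 1.17% of the counts in *pros*-depleted samples, against 10.4%, 11.5% and 11.1% in controls. For each count on the 9 genes there were 2.36, 3.27 and 2.61 counts on hormone genes in *pros*-depleted samples, against 29.4, 32.7 and 29.4 in controls. Against the chaperones *Hsc70-3*, *Gp93* and *Pdi* alone, there were 5.50, 9.29 and 5.68 hormone counts per chaperone count in *pros*-depleted samples and 72.2, 75.7 and 59.3 in controls. All *pros*-depleted samples lay below all controls in each of these ratios, with 3 samples a group, and no test was run on them. Of the 13 hormone genes 10 were called lower and 1 higher, where 7.96% and 4.73% of all genes tested were, and the lowest log2 fold changes were those of *Mip* (-7.64), *Dh31* (-6.88) and *Tk* (-6.15). The gene called higher was *Nplp2*, with a log2 fold change of 4.58. *ITP*, named after its values were seen, was the other hormone gene with a positive value, at 99.7 ± 8.57 CPM in *pros*-depleted samples and 61.1 ± 12.3 CPM in controls (SD, n = 3 each), with no overlap between the groups. It was called higher by DESeq2 (adjusted p = 0.00836) and not by edgeR (log2 fold change 0.70, adjusted p = 0.0330). Its exons and those of the opposite-strand gene *CG4622* have 296 bp in common.

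Digestive enzymes, another secreted class and one made mostly by enterocytes, went the other way. Their 45 listed genes took 2.91%, 1.47% and 1.35% of the counts in *pros*-depleted samples, against 0.473%, 0.475% and 1.07% in controls. Of the 45 genes 16 were called higher and 2 lower by edgeR, where 4.73% and 7.96% of all genes tested were, and 23 were called higher and 2 lower by DESeq2. With single samples left out, edgeR called 8 to 17 of them higher, with 8 without control replicate 1. *Mal-A7* (log2 fold change 5.58), *Jon65Aiii* (4.66) and *Mal-A8* (4.41) had the highest log2 fold changes among the called genes, and *Mal-A3* (-2.37) and *Mal-A2* (-1.69) were those called lower. The enterocyte transcription factor *nub* had 28.3, 30.2 and 18.2 CPM in *pros*-depleted samples and 4.39, 1.32 and 2.66 CPM in controls, by library size alone. Not all enterocyte markers were like it. By the same measure *Jon66Cii* had 1.49, 1.28 and 1.03 CPM in *pros*-depleted samples and 1.69, 5.68 and 1.30 CPM in controls. *Vha100-4* overlapped, at 25.5, 22.6 and 32.7 CPM in *pros*-depleted samples and 23.2, 9.66 and 18.8 CPM in controls. The remaining enterocyte markers were higher in every *pros*-depleted sample than in any control. Near-identical copies occur among the digestive enzymes, and how reads with several positions were counted is not given in the sources used here.

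**Figure D4:**
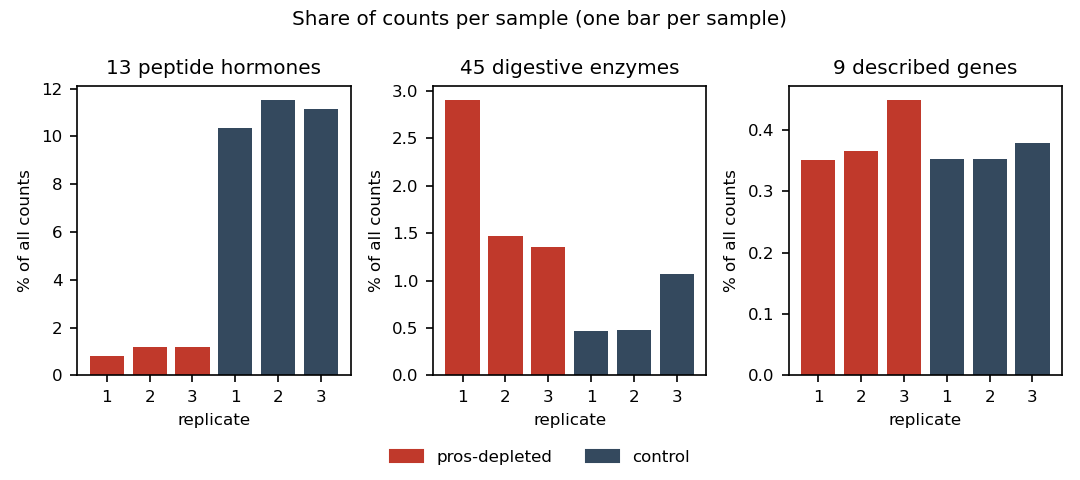
Share of all counts (vertical axes, in %, each starting at 0) taken by 13 peptide hormone genes, 45 digestive enzyme genes and the 9 described genes, with 1 bar for each *pros*-depleted sample (red, left) and each control sample (dark, right). Hormones take 0.826% to 1.20% in *pros*-depleted samples and 10.4% to 11.5% in controls, while the 9 genes stay between 0.351% and 0.449% in all 6 samples.

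The same was examined in 86 other genes of the early secretory pathway, in 7 lists drawn up by known function. These lists were chosen with earlier results on other genes of these data known. Of the 83 that passed the filter on low counts, 0 were called higher and 1 lower by edgeR, where 4.73% and 7.96% of all genes tested were. At an unadjusted p under 0.05 there were 18 of the 83 (21.7%), against 38.7% of all genes tested. DESeq2 called 1 higher and 5 lower, where it called 9.41% and 12.2% of all genes tested. The median log2 fold change of the 83 was -0.12, and 71 of them (85.5%) had an absolute log2 fold change of at most 0.5. So had 7 of the 9 genes described here and 51.9% of all genes tested. Among the 2383 genes tested with a mean of at least 50 CPM, which include 8 of the 9 genes, that share was 58.9% and 15.1% were called. The groups did not overlap in 25 of the 83 genes, with the *pros*-depleted samples above in 3 and below in 22, against 20.4% above and 22.5% below over all genes tested.

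The gene called was *Edem1*, which encodes a mannosidase-like protein that routes misfolded glycoproteins to ER-associated degradation. It had 10.6, 10.04 and 8.90 CPM in *pros*-depleted samples, against 18.2, 17.7 and 16.7 CPM in controls. The groups were apart, at a log2 fold change of -0.83 with a standard error of 0.162 (edgeR adjusted p = 0.00756). It was the 1 called of 10 genes for ER-associated degradation, whose median was -0.22. With any 1 of the 6 samples left out *Edem1* was no longer called, and its log2 fold change then lay between -0.88 and -0.75 with edgeR adjusted p values of 0.0180 to 0.0305.

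None of the 10 other genes of unfolded protein and eIF2 kinase signalling was called by edgeR, with a median of -0.23. At an unadjusted p under 0.05 there were 4 (40.0%), against 38.7% of all genes tested, and DESeq2 called 2. These 2 were named after their values were seen. *Atf6*, the gene of the remaining ER stress sensor, had 25.2, 33.3 and 22.6 CPM in *pros*-depleted samples and 49.5, 41.5 and 45.2 CPM in controls (log2 fold change -0.75, adjusted p = 0.0240 from edgeR and 0.00694 from DESeq2). *Thor*, the 4E-BP gene and a known crc target in flies, had 352, 268 and 211 CPM in *pros*-depleted samples and 136, 152 and 132 CPM in controls (log2 fold change 0.99, adjusted p = 0.0128 from edgeR and 0.00028 from DESeq2). The groups did not overlap for either gene, with *pros*-depleted samples below for *Atf6* and above for *Thor*. With edgeR, 1 gene of this list was called higher without *pros*-depleted replicate 3 and with library size only, and 1 higher and 2 lower with an adjusted p allowed up to 0.05.

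Of the other ER chaperones and folding enzymes, 15 of 16 were tested and 0 called, with a median of -0.25. At an unadjusted p under 0.05 there were 4 (26.7%), against 38.7% of all genes tested. DESeq2 called 1, *Ero1L*, the oxidase that keeps disulfide isomerases oxidised, at a log2 fold change of -0.77. Among 17 tested genes of translocation and signal peptide processing, 0 were called, the median was 0.0048 and 6 (35.3%) were at an unadjusted p under 0.05. DESeq2 called 1 of them, the signal peptidase subunit *twr*, at -0.82. Among 16 tested genes of the COPII coat and its cargo receptors 0 were called, with a median of -0.07 and 1 at an unadjusted p under 0.05, *p24-1*, which DESeq2 called at -0.84. The 6 oligosaccharyltransferase subunits (median -0.17) and 9 COPI coat genes (median -0.09) had 0 calls by edgeR or DESeq2 and 0 at an unadjusted p under 0.05, and each had an absolute log2 fold change of at most 0.5. *Ero1L*, *twr* and *p24-1* were also named after their values were seen. The 3 listed genes that failed the filter were *wbl* and *p24-2*, with at most 14 counts, and *Spase12*, listed at 0 counts in each sample. All 493 bp of *Spase12* exons overlap *CG2006* on the opposite strand, which held 170 to 247 counts, and 3535 of the 3554 bp of *p24-2* overlap *Unc-115b* on the same strand, which held 2000 to 2588 counts. How reads in such overlaps were assigned is not given in the sources used here, so these low counts do not show that the genes were unexpressed.

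**Figure D5:**
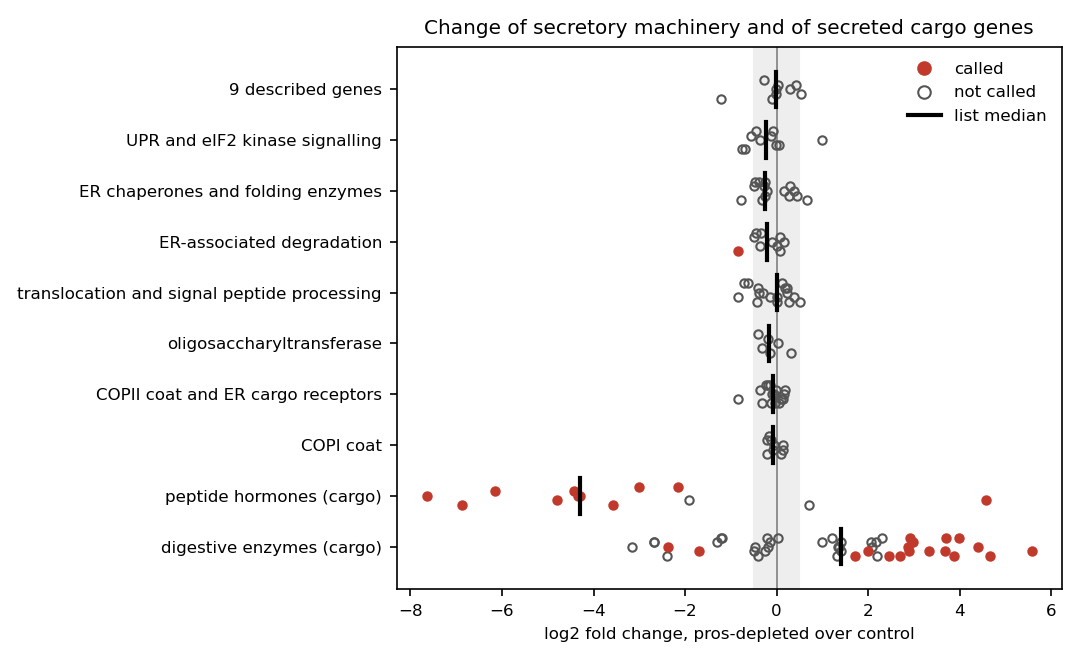
Log2 fold change, *pros*-depleted over control (horizontal axis), of each tested gene in the 9 described genes, the 7 early secretory lists and the 2 cargo lists (rows), with filled red points for genes called by edgeR, open points for the rest, black bars for list medians and a grey band for absolute values up to 0.5. Medians of the machinery lists lie between -0.25 and 0.0048, that of the hormones at -4.31 and that of the digestive enzymes at 1.41.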

How the data were processed

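RNA of sorted GFP-positive EEs was amplified and sequenced as single-end 50 bp reads. The deposited table holds whole-number counts per gene, which the authors made by mapping reads to BDGP6 and counting with featureCounts (v1.6.3). The aligner, the strand setting and the handling of reads with several positions are not given in the sources used here. Totals were 27183747 to 40766059 counts per sample. Amplification makes reads dependent, so precision was judged from the spread between samples. The study states independent replicates, each pooled from many guts.

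Groups came from the sample labels. Genes that reached 10 counts in 3 or more samples were tested with edgeR 4.0.16 (R 4.3.3; TMM scaling, quasi-likelihood F test, two-sided, Benjamini-Hochberg adjustment over 10374 genes), and DESeq2 1.42.0 was run as an alternative. Genes were called at an adjusted p below 0.01 and a log2 fold change above 0.5 in size. CPM used TMM-scaled totals except for marker sums, CPM per kilobase used the exonic length of the annotation, and log2 CPM used a prior count of 2. The 95% intervals used the standard error of the fit. Single genes were also compared by a two-sided exact permutation test (scipy 1.17.1).

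The text names all 9 genes, *pros*, every called gene of a pathway list (up to 3 in each direction) and the 3 nearest profiles of *Hsc70-3*, *Xbp1*, *Ire1* and *CrebA*. The genes and lists were chosen with earlier results of these data known. Alternatives covered the tool, normalization, filters, thresholds, a replicate block and each sample left out. Gene positions are those of the supplied BDGP6 annotation.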

Additional observations from a re-analysis of the deposited data

How the results depend on the processing

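The 9 genes gave 0 calls higher under all 16 alternatives, and calls lower only for *Ire1*, 1 call each with DESeq2 and with an adjusted p up to 0.05. The median of the 9 log2 fold changes was -0.027 to 0.053 with single samples left out and 0.12 with library size only, which moved the median of all genes by 0.116. Over all genes, calls higher and lower were 976 and 1267 with DESeq2 and 1184 and 1519 with an adjusted p up to 0.05. With single samples left out they were 188 to 317 and 413 to 596, lowest without control replicate 2, and 173 and 282 without replicate 3 of both groups, which was added after seeing the data. Signs turned only for genes near 0. *Pdi* was 0.0093 with DESeq2 and with its size factors, 0.12 with library size only, 0.016 with a mean of at least 50 counts, 0.0060 without replicate 3 of both groups and -0.047 to 0.053 with single samples left out. *Xbp1* was 0.10 with library size only and -0.072 to 0.022 with single samples left out, and *Gp93* 0.034 and -0.20 to 0.021. *crc* was -0.0027 with no filter, -0.042 without replicate 3 of both groups and -0.25 to 0.22 with single samples left out. The cause of these turns was not tested. *Edem1* was not called with the replicate block, library size only or a log2 fold change over 1. Same-numbered samples of the groups correlated at -0.16, 0.20 and 0.10 in their deviations, and differently numbered ones at -0.29 to 0.23. Whether equal numbers share a batch cannot be decided from these values. A replicate block gave 346 calls higher and 643 lower, 0 of them among the 9 genes, whose median was -0.0004. It lowered the standard error of *Hsc70-3* from 0.297 to 0.169 and that of *CrebA* from 0.377 to 0.256. Those of *Ire1* (0.3345 to 0.3407) and *Sec61alpha* (0.1786 to 0.1813) rose. With 3 samples a group, precision is limited to the printed intervals, which reach 0 for 7 of the 9 genes.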
